A study of Mus musculus with 9 samples.

Results

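Gene expression in the 3 libraries labelled KO was compared with that in the 3 libraries labelled fl, over every gene that reached 1 FPKM (fragments per kilobase of exon per mega fragments) or more in at least 3 of these 6 libraries. This rule kept 11586 of the 54532 Ensembl genes in the table. All libraries are total RNA of white cells labelled as myeloid, from mice of C57BL/6 background aged 6 to 8 weeks. The mice of the fl libraries are labelled as wild type and those of the KO libraries as SOCS3 knockout. The study also holds 3 wild type libraries named Gr_1, which enter here only through the shared estimate of spread. What fl stands for, how Socs3 was targeted, in which cells, and whether each library is 1 animal or a pool are not spelled out in the labels, so the p-values measure the spread between these libraries only. Markers and genes that are usually read as neutrophil or monocyte identity were set aside, and the account below is of the other genes and functions.

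SOCS3 is a feedback inhibitor of cytokine signalling. It binds receptors of the interleukin-6 and G-CSF type, limits their Janus kinases, and so shortens the activity of the transcription factor STAT3. In myeloid cells STAT3 acts downstream of G-CSF, a main driver of neutrophil production.

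The 6 libraries held between 18.3 and 20.8 M recovered fragments, so that 3 fragments of a gene with 1 kilobase of exon correspond to 0.136 to 0.162 FPKM. Socs3 itself stood higher, not lower, in the knockout-labelled libraries, with 9.23, 6.76 and 8.37 against 3.87, 4.02 and 3.40 FPKM, given here and below in the order A, B and C with KO first. The group names are therefore used as labels throughout. Lyz2, the lysozyme gene of neutrophils and macrophages, stood at 53.2, 59.8 and 56 against 8670.3, 8827 and 9998 FPKM. Sex-linked RNA differed within the libraries labelled KO. KO A held Xist, made by the inactive X of female cells, at 0.0028 FPKM and 4 genes of the Y chromosome (Uty, Kdm5d, Ddx3y and Eif2s3y) at 26.5 FPKM in sum. In KO B, Xist stood at 58.5 FPKM and the Y-linked genes had 0 fragments, and KO C held both, at 26.3 and 14.2 FPKM. The fl libraries had Xist at 0.0076 FPKM or less and the Y-linked genes at 16.6 to 27.3 FPKM. Among 297 tested genes whose KO A and KO B levels differed by at least 1 on the log2 scale, KO C lay between them in 264 (88.9%), whereas the same share with any other library of a group as the middle one ran from 47.5% to 73.7%. Whether KO C is independent of KO A and KO B was not tested. The p-values, standard errors and comparisons of 3 libraries with 3 count it as a separate replicate, and counts are therefore also given without it.

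Of the 11586 genes, 1327 (11.5%) were called at an adjusted p under 0.05 (limma on log2(FPKM + 1) with Benjamini-Hochberg adjustment over all genes tested, two-sided). In the libraries labelled KO 508 of them (4.38% of genes tested) had higher and 819 (7.07%) lower levels, and 221 had a log2 change of 1 or more in size (120 up, 101 down). The split depends on scaling. With all libraries rescaled after removing the 10 most abundant genes, 756 genes were higher and 578 lower, and the median change over all genes went from -0.02 to 0.05. Without KO C, 613 genes (5.29%) were called, 211 higher (1.82%) and 402 lower (3.47%), and 719 of the 1327 were no longer called. The 3 KO and 3 fl libraries did not overlap in 3637 genes (31.4%), a background against which the separate groups of any single gene below have to be read. Changes are log2 changes in FPKM + 1 with standard errors from the fit, and fold values are ratios of mean FPKM. Unless stated otherwise, each gene given below as risen or fallen kept its call and its direction under each of the 15 alternative settings that tested it, leaving out each library in turn included. With 3 libraries on each side, an exact permutation test (two-sided) cannot give a p below 0.1.

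Slfn4 and Acod1 were among the largest rises outside the usual neutrophil genes. Slfn4 (ENSMUSG00000000204, chr11:83175186-83190216, plus strand, GRCm38), a Schlafen gene expressed in myeloid cells, stood at 128, 37.1 and 81 FPKM in libraries A, B and C of KO against 15.7, 13.2 and 9.45 FPKM in those of fl. All 3 libraries labelled KO lay above all fl libraries, KO A highest and KO B lowest, and the rise was 6.43-fold (log2 change 2.45 ± 0.38, adjusted p = 0.00425). Acod1 (ENSMUSG00000022126, chr14:103046977-103056573, plus strand) encodes the enzyme that makes the antimicrobial metabolite itaconate from an intermediate of the tricarboxylic acid cycle. It had 9.52, 6.35 and 7.36 against 0.814, 0.624 and 0.701 FPKM, a 10.9-fold rise with the groups well apart (log2 change 2.34 ± 0.28, adjusted p = 0.00162). Dhrs9 (ENSMUSG00000027068, chr2:69380445-69404533, plus strand), a short-chain dehydrogenase that acts on retinoids, had 6.31, 4.53 and 5.38 against 0.573, 0.461 and 0.657 FPKM. It was under 1 FPKM in every fl library and rose 9.59-fold (log2 change 2.03 ± 0.13, adjusted p = 0.000178).

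Several other risers encode secreted or surface proteins of inflammation. Il1f9, which encodes the cytokine interleukin-36 gamma, stood at 30.0, 18.4 and 26 against 5.87, 4.85 and 5.71 FPKM (log2 change 1.97 ± 0.15, adjusted p = 0.000406). Ceacam10, a secreted member of the carcinoembryonic antigen family, had 13.2, 6.27 and 10.7 against 1.70, 1.84 and 1.30 FPKM (log2 change 2.03 ± 0.22, adjusted p = 0.00093). In both genes the lowest library labelled KO was more than 3-fold above the highest fl library. The metalloprotease Adam8, which sheds surface proteins of leukocytes, had 86.6, 37.4 and 64 against 21.8, 20.1 and 23.3 FPKM, and Lrg1, a secreted leucine-rich glycoprotein of the acute phase, had 173, 141 and 158 against 91.6, 85.5 and 99.4 FPKM. Neither gene's groups overlapped, and their log2 changes were 1.41 ± 0.25 and 0.76 ± 0.11 (adjusted p = 0.00762 and 0.00361, limma). Lilr4b, an immunoglobulin-like receptor that inhibits myeloid activation, stood at 115, 90.3 and 101 against 50.4, 44.1 and 35.8 FPKM and rose 2.35-fold (log2 change 1.22 ± 0.14, adjusted p = 0.00136). It has a near-identical neighbour, so fragments may have been divided unevenly between the 2. Ifitm1, an antiviral membrane protein, was at 50.4, 38.6 and 49.7 against 7.89, 9.91 and 18.2 FPKM, with fl C highest among the fl libraries and still below every library labelled KO (log2 change 1.93 ± 0.26, adjusted p = 0.00256).

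Some risers were nearly silent in the fl libraries. Gpr27, an orphan G protein-coupled receptor, had 3.20, 1.62 and 3.06 against 0.0381, 0.0202 and 0.0226 FPKM, which rests on 395 fragments over the KO and 4 over the fl libraries (log2 change 1.79 ± 0.18, adjusted p = 0.000818). Steap4, a metalloreductase that takes part in iron and copper uptake, had 3.45, 1.14 and 2.16 against 0.230, 0.153 and 0.274 FPKM on 442 and 42 fragments. Upp1, uridine phosphorylase of the pyrimidine salvage pathway, had 1.21, 1.64 and 1.64 against 0.162, 0.0491 and 0.276 FPKM on 187 and 19 fragments. In all 3 genes every fl library was under 0.3 FPKM and every library labelled KO above 1 FPKM. The non-coding RNA Mirt2, which is induced by lipopolysaccharide in macrophages, had 7.10, 2.29 and 3.94 against 0.429, 0.273 and 0.443 FPKM (log2 change 1.88 ± 0.26, adjusted p = 0.00287). It is annotated as antisense to another gene, and the sources used here do not say whether counting used strand. Of the 11586 genes, 116 passed the filter with no fl library at 1 FPKM, and 75 of these were called higher. Such genes had to differ to be tested. In each functional list below at most 2 members passed in this way, so the counts of risers are descriptions. The list with 2 was that of receptors for purines, lipids, amines and unknown ligands (Gpr34 and P2ry14). Trbj1-5 and Mir7007 are among the largest fitted rises but rest on 16 and 11 fragments over the KO libraries and 0 over the fl libraries, so no fold is given for them.

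Grina, a membrane protein of the family that moderates calcium release and cell death, was among the risers with the largest difference in FPKM, at 180.4, 92.7 and 138 against 57, 58.6 and 54.8 FPKM (log2 change 1.20 ± 0.20, adjusted p = 0.00562). Trpm2, a calcium-permeable channel opened by oxidative stress, had 10.7, 4.77 and 7.64 against 2.44, 2.63 and 2.17 FPKM. AA467197, whose transcript hosts a microRNA induced by inflammation, had 18.8, 12.6 and 14.9 against 3.82, 4.60 and 4.09 FPKM. KO A was the highest and KO B the lowest library in Grina, Trpm2 and AA467197, as in Slfn4 and Adam8, while all 3 stayed above the fl libraries.

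**Figure D1:**
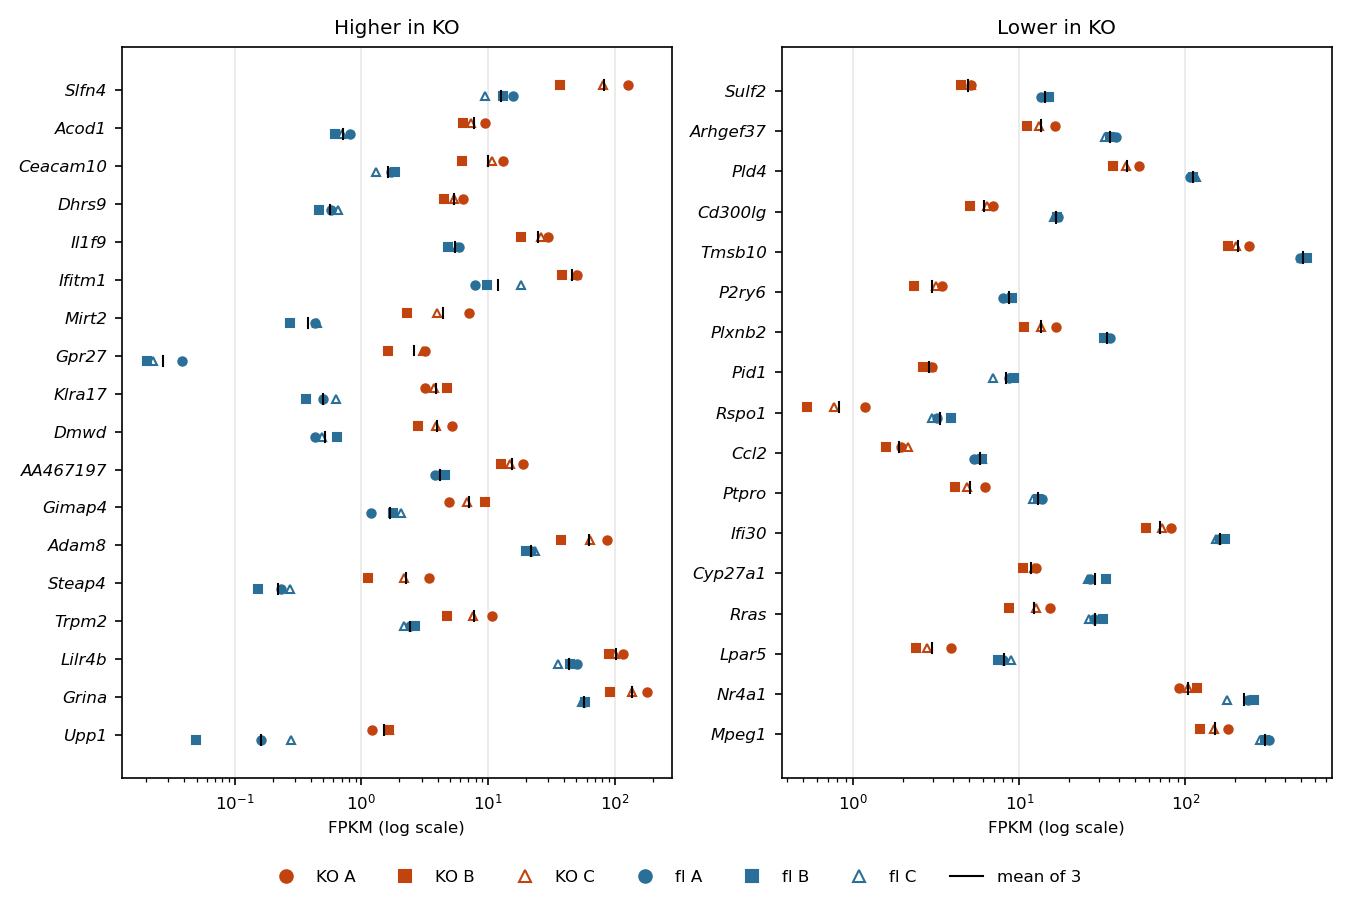
FPKM (log axis) of 18 genes that rose (left) and 17 that fell (right), by library; marker shape gives the letter of the library and the black tick the mean of 3. In every gene drawn the KO libraries (red) and fl libraries (blue) do not overlap: Slfn4 lies at 37.1 to 128 FPKM against 9.45 to 15.7, and Sulf2 at 4.44 to 5.14 against 13.4 to 15.0.

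The promoter windows of risers are shown because they can hold the letters that STAT3 and other inducible factors are known to read. RefSeq windows (GRCm38.p6, 250 bases before to 50 after the start) matched 8102 of the tested genes, 356 of the risers and 626 of the genes that fell. The letters TTCNNNGAA, the core read by STAT factors, were found on either strand in 9.83% of the windows of risers, 6.07% of those of fallers and 6.94% of all windows. TGANTCA, read by AP-1, was in 8.43%, 6.23% and 4.91%. TTGCNNAAT, read by C/EBP factors, was in 3.09%, 0.799% and 1.7%, and the full C/EBP palindrome TTGCGCAA in 0%, 0.16% and 0.321%. The NF-kappaB motif was in 3.09%, 2.24% and 1.64%. The cyclic AMP element TGACGTCA, which contains no AP-1 match as written here, was in 1.69%, 2.4% and 3.37%, the E-box CACGTG in 6.74%, 11% and 10.7%, and TGATGCAAT, read by ATF4, in 0%, 0.16% and 0.0864%. These shares were not tested, and a match is a description of letters only. The stretches below carry a STAT match in capitals and come from Il1f9 (chr2:24186328-24186376, plus strand, motif starting 128 bases before the start), Lilr4b (chr10:51480488-51480536, plus strand, motif starting 104 bases before the start) and Ltb (chr17:35194315-35194363, plus strand, motif starting 172 bases before the start). Ltb encodes lymphotoxin beta and is described with the TNF family below. None of the stretches overlaps an exon of GENCODE M21.
Il1f9: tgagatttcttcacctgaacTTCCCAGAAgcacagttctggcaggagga
Lilr4b: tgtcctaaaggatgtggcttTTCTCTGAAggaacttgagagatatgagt
Ltb: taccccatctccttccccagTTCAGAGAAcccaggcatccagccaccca

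An AP-1 match stands in capitals in the stretches from Slfn4 (chr11:83175132-83175178, plus strand, motif starting 34 bases before the start), Upp1 (chr11:9117943-9117989, plus strand, motif starting 45 bases before the start) and Adam19 (chr11:46055833-46055879, plus strand, motif starting 131 bases before the start). Adam19 encodes a membrane metalloprotease and rose 2.56-fold, with 8.17, 7.93 and 7.75 against 2.86, 3.57 and 2.87 FPKM (log2 change 1.13 ± 0.08, adjusted p = 0.000327).
Slfn4: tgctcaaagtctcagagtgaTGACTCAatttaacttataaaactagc
Upp1: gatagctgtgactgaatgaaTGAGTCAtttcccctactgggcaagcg
Adam19: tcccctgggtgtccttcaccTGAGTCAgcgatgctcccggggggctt

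Among the genes that fell, Sulf2 had the smallest adjusted p of the genes named here apart from Lyz2. Sulf2 (ENSMUSG00000006800, chr2:166073089-166155663, minus strand) encodes an extracellular enzyme that removes sulphate from heparan sulphate and so alters the binding of growth factors. It stood at 5.07, 4.44 and 5.14 FPKM in libraries A, B and C of KO against 13.4, 15 and 14.3 FPKM in those of fl, a 2.92-fold lower level with little spread in either group (log2 change -1.37 ± 0.07, adjusted p = 8.88e-05). Tmsb10 (ENSMUSG00000079523, chr6:72957347-72958748, minus strand), a small protein that binds actin monomers, had 242, 181 and 202 against 489, 539.6 and 502 FPKM and was 2.45-fold lower (log2 change -1.30 ± 0.11, adjusted p = 0.000406). No library labelled KO reached the lowest fl library in either gene.

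Pld4, Ifi30 and Mpeg1, which also fell, encode proteins of endosomes, lysosomes or phagosomes. Pld4, an exonuclease that degrades nucleic acids in endolysosomes, had 52.5, 36.5 and 43.9 against 107, 110.3 and 116 FPKM (log2 change -1.32 ± 0.14, adjusted p = 0.00104). Ifi30, a thiol reductase that unfolds antigens in lysosomes, had 81.4, 57.5 and 72.2 against 160.2, 173 and 153 FPKM (log2 change -1.20 ± 0.14, adjusted p = 0.00138), and Mpeg1, the pore-forming protein perforin-2 of phagosomes, had 181, 123 and 148 against 317, 303 and 283 FPKM (log2 change -1.01 ± 0.13, adjusted p = 0.00187). Hpse, heparanase, which cuts heparan sulphate chains, stood at 14.9, 10.4 and 12.9 against 25.7, 26.6 and 28.3 FPKM (log2 change -1.03 ± 0.16, adjusted p = 0.00403). Rspo1, a secreted enhancer of Wnt signalling, was at 1.17, 0.522 and 0.759 against 3.17, 3.88 and 2.96 FPKM, and the chemokine gene Ccl2, which attracts monocytes, at 1.95, 1.58 and 2.14 against 5.35, 5.97 and 5.99 FPKM. Both were low in absolute level, 4.08-fold and 3.06-fold lower, and did not overlap between groups.

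Several genes of intracellular signalling were among those that fell, while Socs3, as given above, was higher. The list of the Ras and MAP kinase pathway was split, with 4 higher and 4 lower of 38 (21.1% called against 11.5% of all genes; 2 and 4 without KO C, and 2 higher also without KO A, fl B or fl C). Dusp1, a phosphatase that switches off p38 and JNK, stood at 239, 224 and 238 against 335, 325 and 371 FPKM, and Zfp36, which destabilises cytokine mRNA, at 214, 223 and 214 against 350.2, 335 and 396 FPKM. Nr4a1, an orphan nuclear receptor induced early after stimulation, had 91, 118 and 103 against 239, 258 and 179 FPKM. The log2 changes of Dusp1, Zfp36 and Nr4a1 were -0.55 ± 0.08, -0.73 ± 0.09 and -1.10 ± 0.16 (adjusted p = 0.00349, 0.00141 and 0.00306, limma). Rras, a small GTPase of the Ras family, had 15.4, 8.62 and 12.6 against 28.1, 31.7 and 26.3 FPKM, and the receptor-type tyrosine phosphatase Ptpro 6.24, 4.08 and 4.86 against 13.6, 13 and 12.1 FPKM. Inppl1, the lipid phosphatase SHIP2, had 2.19, 1.86 and 2.10 against 4.53, 5.40 and 4.98 FPKM and was 2.43-fold lower (log2 change -0.97 ± 0.08, adjusted p = 0.000406).

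In bulk RNA, fewer cells of a type and less RNA per cell cannot be told apart. The summed FPKM of 17 monocyte and macrophage markers was 814 to 857 in the libraries labelled KO and 1258 to 1412 in the fl libraries. Of the 16 tested markers 11 fell (8 without KO C), where 7.07% of all genes were lower (3.47% without KO C). The 17 neutrophil markers summed to 77556 to 105603 and 69309 to 77822, so that the groups overlapped. Of these markers 7 rose (5 without KO C) and 10 were not called, where 4.38% of all genes were higher (1.82% without KO C). No marker of either list was under 0.1 FPKM in all 6 libraries. The part of these marker levels in the changes of single genes was not tested.

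**Figure D2:**
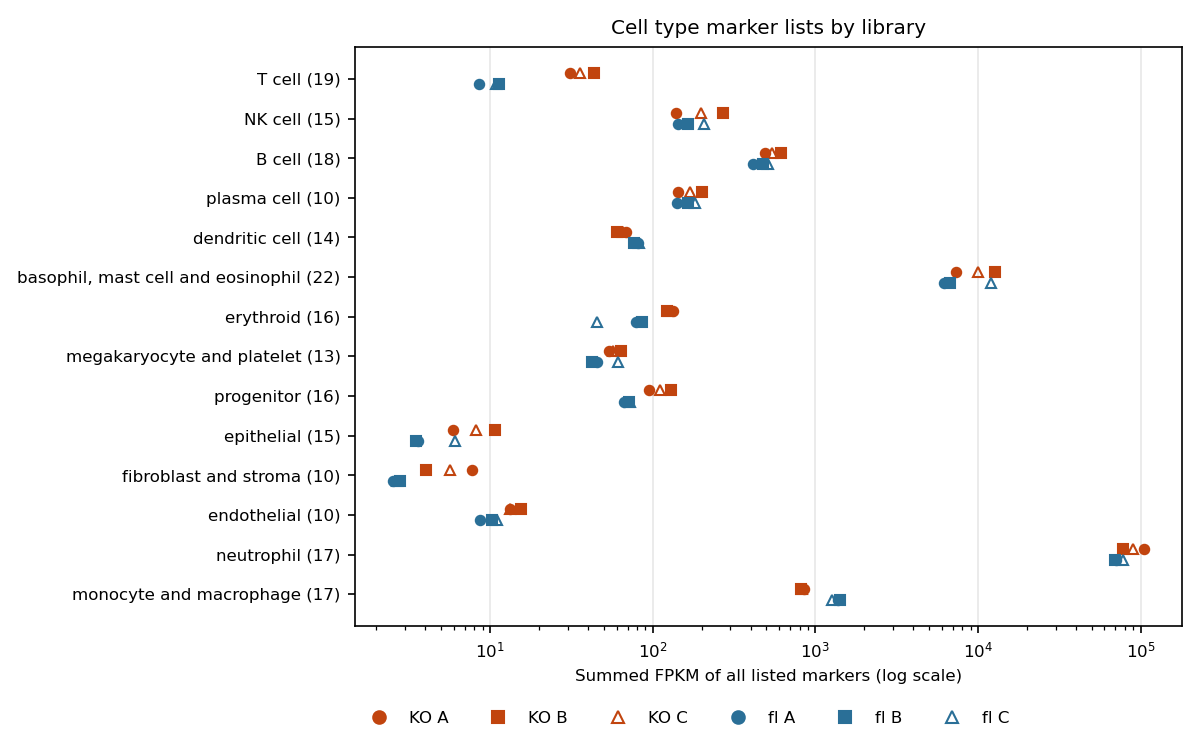
Summed FPKM (log axis) of the markers of 14 cell types in each library; the number of markers is in parentheses. The monocyte and macrophage sums are lower in all 3 KO libraries (814 to 857 against 1258 to 1412) and the T cell sums higher (30.8 to 43.6 against 8.58 to 11.3). The sums of the joint list of basophils, mast cells and eosinophils overlap. So do those of NK cells, neutrophils, B cells, plasma cells, megakaryocytes and epithelium. A sum follows its most abundant markers, and single markers can be apart where it overlaps.

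Receptors for purines, lipids, amines and unknown ligands moved in both directions. These receptors let leukocytes sense nucleotides released from damaged cells and lipid mediators. Most of the list are G protein-coupled receptors, but P2rx1 (called higher), P2rx7 (called lower) and P2rx4 (not called) are ATP-gated channels. The counts below include them. Of 36 tested, 11 rose and 9 fell, so 55.6% were called against 11.5% of all genes, and the median change was 0.00. Without KO C 5 rose and 5 fell, as without fl B, and without fl A 7 rose and 5 fell. The receptors that fell most were P2ry6, the receptor for UDP (3.40, 2.33 and 3.15 against 8.0, 9.08 and 8.77 FPKM), Gpr35, an orphan receptor of gut and immune cells (5.87, 3.92 and 5.50 against 12.3, 13.4 and 11.7 FPKM), and Lpar5, a receptor for lysophosphatidic acid (3.85, 2.37 and 2.76 against 7.95, 7.41 and 8.85 FPKM). Their log2 changes were -1.29 ± 0.13, -1.15 ± 0.13 and -1.20 ± 0.14 (adjusted p = 0.000857, 0.00105 and 0.00122, limma). Adgrg1, an adhesion receptor of cytotoxic lymphocytes and stem cells, rose 2.78-fold, from 5.0, 5.77 and 7.48 to 14.2, 19.7 and 16.9 FPKM (log2 change 1.34 ± 0.16, adjusted p = 0.00138). Mrgpra2b and Mrgpra2a, paired receptors of neutrophils that respond to peptides, rose 1.89-fold and 1.68-fold and stood at 19.5, 23.3 and 20.6 against 10.5, 11.3 and 11.8 FPKM and 3.73, 3.56 and 3.19 against 2.05, 2.06 and 2.14 FPKM. The pair share sequence, so their separate values are uncertain.

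**Figure D3:**
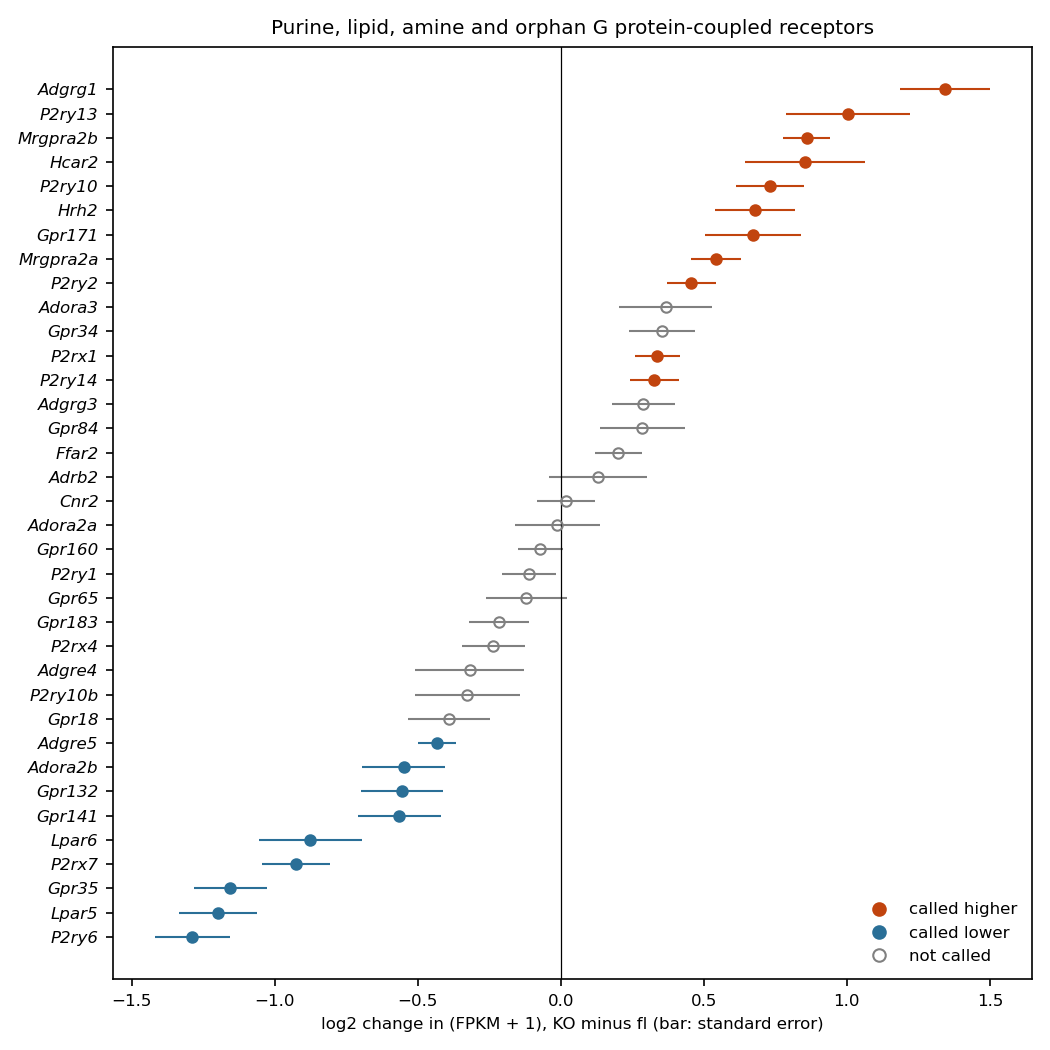
Fitted log2 change in FPKM + 1 (KO minus fl, bar: standard error) of the 36 tested receptors for purines, lipids, amines and unknown ligands. P2rx1, P2rx4 and P2rx7 among them are ATP-gated channels, not G protein-coupled receptors. Filled red points (11) were called higher, filled blue points (9) lower and open grey points (16) were not called; the changes run from -1.29 in P2ry6 to 1.34 in Adgrg1.

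In the list of cholesterol efflux and lipoprotein handling, the genes called were lower with 1 exception. Of 15 tested, 8 fell and 1 rose, where 7.07% of all genes were lower and 4.38% higher. The 8 were Lrp1, Npc2, Pltp, Abca9, Apoe, Soat1, Scarb1 and Npc1, of which not all kept their calls in every setting. Without KO C, 6 fell and 0 rose (3.47% and 1.82% of all genes). The list had a median change of -0.49 against -0.02 over all genes. Pltp, which transfers phospholipid between lipoproteins, had 3.79, 2.15 and 2.58 against 5.59, 6.07 and 6.10 FPKM (log2 change -0.87 ± 0.15, adjusted p = 0.00728). Npc2, which binds cholesterol in the lysosome, had 58.7, 54.2 and 55.9 against 94, 94.6 and 106 FPKM (log2 change -0.79 ± 0.09, adjusted p = 0.00136), and the transporter Abca9 3.21, 3.31 and 3.17 against 7.24, 7.92 and 5.52 FPKM (log2 change -0.89 ± 0.15, adjusted p = 0.00747). Cyp27a1, the mitochondrial enzyme that makes 27-hydroxycholesterol, was named as a large fall outside this list, at 12.6, 10.5 and 12.3 against 26.5, 33.4 and 25.8 FPKM, 2.42-fold lower (log2 change -1.20 ± 0.16, adjusted p = 0.00236). Mylip, which degrades the LDL receptor, was the gene that rose (16.8, 13.5 and 15.3 against 11.2, 9.73 and 11.1 FPKM), and its call was lost without each of KO A, KO C, fl A and fl B. In the list of sterol synthesis and uptake, 0 of 22 genes were called by limma (at an unadjusted p under 0.05, 1 was higher and 1 lower). Their most abundant members were Mvd, a mevalonate pathway enzyme (26.6, 18.2 and 22.5 against 21.7, 27.2 and 24.4 FPKM), and Srebf2, the transcription factor of the pathway (22, 26.2 and 24.8 against 27.5, 25.9 and 28.9 FPKM), whose libraries overlapped between groups. Whether the lists differ from each other was not tested. Macrophages are rich in many genes of the efflux and lipoprotein list. The part of the lower monocyte and macrophage marker sum (814 to 857 against 1258 to 1412 FPKM) in the falls of that list was not tested.

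Nuclear receptors and their corepressors, several of which respond to lipids and retinoids, included 5 that fell and 0 that rose among 21 (3 fell without fl A, fl B or KO C). The share called was 23.8% in this list, 22.7% for sphingolipids, 21.4% for fatty acid synthesis and storage and 8.33% for fatty acid oxidation. Over all genes it was 11.5% (5.29% without KO C). Rarg, a receptor for retinoic acid, had 10.9, 6.61 and 8.31 against 15.5, 16.4 and 19.7 FPKM (log2 change -0.94 ± 0.16, adjusted p = 0.0066). Of 22 sphingolipid genes 3 fell, among them Smpdl3a, a lysosomal phosphodiesterase (91, 83.4 and 85.7 against 134, 139 and 149 FPKM), and Asah1, acid ceramidase (32, 29.3 and 31.1 against 44.5, 47 and 39.9 FPKM). The log2 changes were -0.69 ± 0.08 and -0.49 ± 0.07. In the same list Ugcg, which makes glucosylceramide, rose (14.9, 13.1 and 13.6 against 9.71, 10.2 and 9.71 FPKM), a call lost without KO C. Plin2, which coats lipid droplets, fell from 42.7, 47.9 and 52 to 30.9, 33.3 and 33.2 (log2 change -0.53 ± 0.08, adjusted p = 0.00388), and 1 other of 28 genes of fatty acid synthesis and storage fell while 4 rose (0 without KO C or fl B, 1 without fl A). Fatty acid oxidation had 2 genes lower of 24, Cpt1a and Eci1, neither of them called without KO C or without fl B. The call of Eci1 was also lost without KO A or fl C, with only the KO and fl libraries and with the replicate block.

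The lists of central metabolism were called at 3.23% (nucleotides), 16.7% (tricarboxylic acid cycle), 23.3% (redox) and 28% (haem and iron), against 11.5% of all genes, and whether they differ was not tested. In the tricarboxylic acid cycle list Acod1 rose and 3 of 24 genes fell, of which Idh1, the cytosolic NADP-dependent isocitrate dehydrogenase, kept its call in every setting. Idh1 had 29.9, 30.6 and 31.8 against 46.3, 53.1 and 47.4 FPKM (log2 change -0.65 ± 0.07, adjusted p = 0.000886). The calls of Sdhb (28.1, 24.4 and 27.2 against 32.8, 32.8 and 33.9 FPKM) and Idh3b (20.4, 19 and 19.5 against 22.2, 23.8 and 23.6 FPKM) were lost in 8 and 12 of the 15 settings, among them leaving out any library, except that of Sdhb without KO A. Nucleotide synthesis and salvage had 1 called gene of 31, Upp1. Upp1, Acod1 and, in the haem and iron list, Steap4 had no fl library at 1 FPKM. They passed the filter only through the libraries labelled KO. Among members with every fl library at 1 FPKM, 0 of 30 nucleotide genes and 0 of 23 tricarboxylic acid cycle genes rose. Of the haem and iron genes 3 of 24 did, where 3.72% of all such genes rose. In the redox list 3 of 30 genes rose and 4 fell (1 and 2 without fl A, fl B or KO C, 1 rose without KO B and 2 fell without fl C). Sod1, cytosolic superoxide dismutase, fell (21.1, 22.7 and 22.6 against 33.2, 34.4 and 41.8 FPKM; log2 change -0.69 ± 0.09, adjusted p = 0.00185), as did the peroxiredoxin Prdx1 (26.6, 23.7 and 24.3 against 38.2, 39.1 and 42 FPKM; log2 change -0.66 ± 0.09, adjusted p = 0.00277). Mgst2, a microsomal glutathione transferase, rose slightly, by 0.34 ± 0.06 (37.4, 40.4 and 38.5 against 29.5, 29.6 and 32.5 FPKM). Of 25 haem and iron genes 4 rose and 3 fell (2 rose without KO C, and 5 fell without KO A). Steap4 and Ncoa4, the receptor that sends ferritin to autophagy (20.2, 21.2 and 20.4 against 15.5, 15.1 and 15.5 FPKM), rose, while Aco1, the iron regulatory protein that is also cytosolic aconitase (5.57, 5.97 and 5.60 against 8.18, 8.07 and 8.82 FPKM), and Hfe, a regulator of iron uptake (6.65, 5.58 and 6.51 against 8.60, 9.79 and 10.1 FPKM), fell.

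Proteasome genes were called about as often as all genes, but most of them lay slightly lower in the libraries labelled KO. Of 37 proteasome subunits and regulators 4 fell and 0 rose (10.8% called against 11.5% of all genes), or 3 and 0 without KO C. Of the 37, 25 were separated downward with no overlap between groups, where 18.9% of all genes were. At an unadjusted p under 0.05 (limma), 19 of the 37 were lower and 0 higher, against 1799 and 1250 of all 11586 genes. The median change was -0.163 against -0.021 over all genes (-0.079 and 0.051 after rescaling without the 10 most abundant genes). Psmb10, a catalytic subunit of the immunoproteasome, had 36.3, 34.8 and 35.4 against 52.4, 49.2 and 60.8 FPKM (log2 change -0.59 ± 0.08, adjusted p = 0.00262), and Psma7, a subunit of the core, 39.9, 42.8 and 39.8 against 55, 57.4 and 66.3 FPKM (log2 change -0.53 ± 0.08, adjusted p = 0.00339). Psmd8 of the regulatory cap had 33.1, 32.6 and 34.2 against 40.7, 41.9 and 47.5 FPKM. Each of these falls was under 1.6-fold. In the list of 26 genes of protein folding in the endoplasmic reticulum, Ern1, Atf6 and Xbp1 fell (11.5% called). The call of Ern1 was lost without KO C, that of Atf6 in 6 and that of Xbp1 in 14 of the 15 settings, KO C left out among them. Cytosolic tRNA synthetases had 1 call of 20, Wars, lost without KO A, KO C or fl B.

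Immune receptors with inhibitory or activating tails moved in both directions. Of 32 Siglec, PIR, CD300 and TREM receptors 8 rose and 3 fell, so 34.4% were called against 11.5% of all genes. Without KO C 4 rose and 3 fell (1.82% and 3.47% of all genes). Without KO A 5 rose and 8 fell, and 5 and 4 rose without fl A and fl B. Cd300lf, an inhibitory lipid receptor, had 46.5, 28.2 and 37.8 against 20.4, 20.2 and 17.1 FPKM (log2 change 0.90 ± 0.16, adjusted p = 0.00717). Its neighbour on chromosome 11, Cd300a, which also inhibits, went the other way, at 26.6, 19.4 and 23 against 36.2, 39.5 and 40.6 FPKM (log2 change -0.74 ± 0.10, adjusted p = 0.00301). Trem2, a lipid-sensing receptor of macrophages, had 1.06, 1.22 and 1.13 against 2.77, 3.61 and 2.91 FPKM (log2 change -0.93 ± 0.10, adjusted p = 0.00093), and Siglech 1.95, 1.28 and 1.62 against 0.336, 0.555 and 0.448 FPKM (log2 change 0.85 ± 0.15, adjusted p = 0.00833). Siglech had no fl library at 1 FPKM and passed the filter only through the libraries labelled KO. Of the 31 receptors with every fl library at 1 FPKM, 7 rose, where 3.72% of all such genes did. Siglech is known from plasmacytoid dendritic cells, and the 14 dendritic cell markers summed to 60.6 to 68.8 FPKM in the libraries labelled KO and 76.3 to 82.8 in fl. The part of dendritic cells in this value was not tested.

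In the list of SLAM and CD28 family receptors and ligands, the genes called were mostly lower. Of 15 tested 7 were lower and 1 higher, where 7.07% of all genes were lower and 4.38% higher. Without KO C 3 were lower and 0 higher, against 3.47% and 1.82%. Without fl A or fl B 4 were lower, and after rescaling without the 10 most abundant genes 4 were lower and 1 higher. The list also holds the intracellular adaptor Sh2d1b1 and the inhibitory receptor Havcr2, both among those lower, and the inhibitory receptor Lag3. Cd86, a ligand that costimulates T cells, had 2.03, 1.52 and 1.75 against 3.72, 3.96 and 2.81 FPKM (log2 change -0.70 ± 0.12, adjusted p = 0.00794), and Cd48, a ligand of the SLAM family, 40.5, 36.7 and 39.7 against 67, 64.8 and 55.2 FPKM (log2 change -0.66 ± 0.09, adjusted p = 0.00314). Slamf8 had 1.77, 0.881 and 1.15 against 2.97, 3.36 and 3.79 FPKM. The gene that rose, Lag3, an inhibitory receptor of activated lymphocytes (1.89, 2.62 and 1.70 against 0.366, 0.434 and 1.21 FPKM), lost its call on leaving out fl A, fl B, KO B or KO C and with only the KO and fl libraries. In the TNF superfamily 6 of 21 fell and 3 rose, so 42.9% were called against 11.5% of all genes. Without KO C 4 fell and 2 rose, and without KO B 5 rose. Tnfrsf1b, a receptor for TNF, had 63.9, 50.4 and 55.1 against 103, 105 and 112 FPKM (log2 change -0.91 ± 0.09, adjusted p = 0.000822), and Tnfrsf13b, the receptor TACI, 13.9, 13.2 and 13.8 against 20.8, 22.3 and 22.5 FPKM (log2 change -0.64 ± 0.07, adjusted p = 0.000866). Ltb, whose promoter stretch is printed above, had 29.9, 18.4 and 25.2 against 11.2, 8.90 and 13 FPKM (log2 change 1.07 ± 0.18, adjusted p = 0.00615), and Cd27, a costimulator of lymphocytes, 3.76, 5.39 and 4.40 against 1.41, 1.68 and 1.77 FPKM (log2 change 1.07 ± 0.11, adjusted p = 0.00093).

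**Figure D4:**
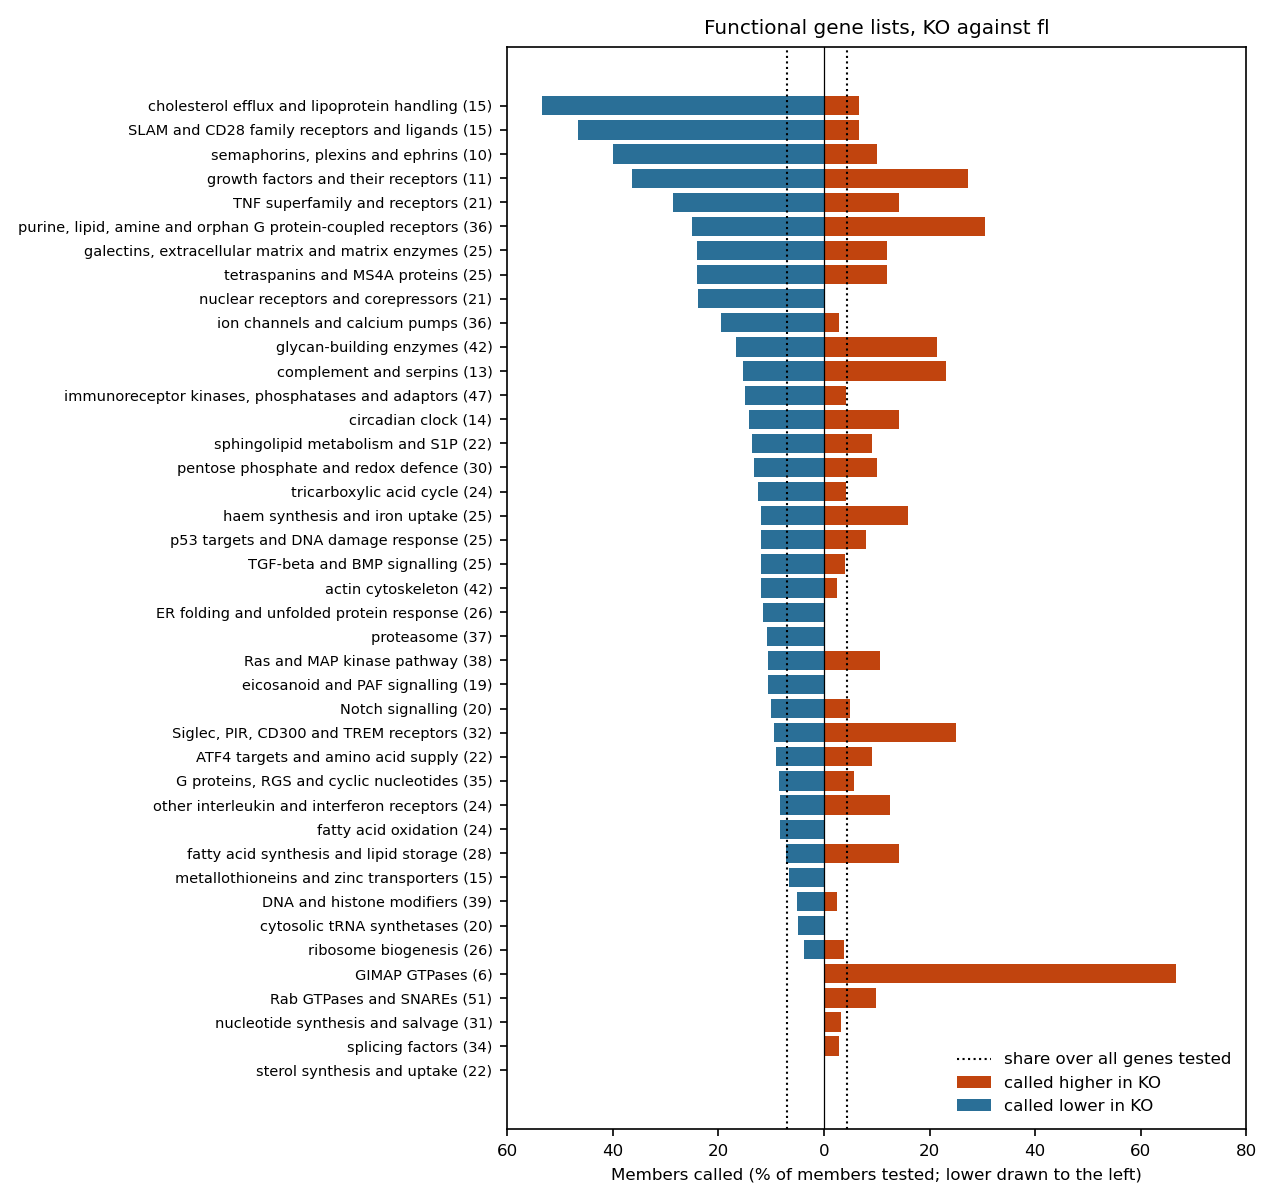
Share of tested members called higher (red, to the right) and lower (blue, drawn to the left) in KO for 41 functional lists; the number tested is in parentheses and dotted lines give the shares over all genes tested (4.38% higher, 7.07% lower). The list of cholesterol efflux and lipoprotein handling has 8 of 15 members lower, and sterol synthesis has 0 of 22 called. The red bars include Gimap8, Upp1, Acod1, Steap4, Siglech, Mgat4a, Il27ra and P2ry14, which were tested only because they are high in KO.

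Enzymes that build glycans were called in both directions. Of 42 tested, 9 rose and 7 fell, where 4.38% of all genes were higher and 7.07% lower (4 and 5 without KO C, against 1.82% and 3.47%, and 4 and 5 rose without fl A and fl B). Gcnt2, which branches polylactosamine chains, had 9.04, 6.87 and 7.70 against 3.25, 3.33 and 3.03 FPKM (log2 change 1.07 ± 0.09, adjusted p = 0.000473). Among the transferases that start mucin-type glycans, Galnt6 rose (12.7, 13.5 and 13.1 against 6.93, 8.20 and 9.35 FPKM; log2 change 0.63 ± 0.10, adjusted p = 0.00453) and Galnt10 fell (7.09, 5.97 and 6.02 against 11.3, 10.5 and 11.2 FPKM; log2 change -0.71 ± 0.09, adjusted p = 0.00162). Ext1, which polymerises heparan sulphate, the substrate of Sulf2 and Hpse, had 1.26, 1.02 and 1.15 against 2.68, 2.80 and 2.47 FPKM and was 2.31-fold lower (log2 change -0.77 ± 0.09, adjusted p = 0.00163). In the matrix list of 25 genes 6 fell and 3 rose (36% called against 11.5% of all genes), or 3 and 2 without KO C. Those that fell included Emilin2, an elastic fibre glycoprotein (51.9, 38.2 and 45.7 against 87, 83.1 and 82.4 FPKM), and Lgals1, a lectin that binds galactosides (96.1, 105 and 102 against 147, 153 and 182 FPKM). Timp2, an inhibitor of metalloproteases, rose (18, 11 and 14.7 against 6.72, 7.49 and 9.04 FPKM), and its call was lost without KO C.

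Called genes of cell shape and guidance were mostly lower, as were called genes over all genes tested. Of all genes 4.38% were higher and 7.07% lower (1.82% and 3.47% without KO C). Of 10 semaphorins, plexins and ephrins 4 fell and 1 rose (50% called against 11.5% of all genes), or 2 and 0 without KO C. Plxnb2, a semaphorin receptor, had 16.6, 10.6 and 13.4 against 35.1, 32.2 and 33.7 FPKM (log2 change -1.27 ± 0.14, adjusted p = 0.00093), and the related Plxnd1 27, 25.9 and 26.6 against 37.9, 35.8 and 41.5 FPKM (log2 change -0.52 ± 0.07, adjusted p = 0.00194). Of 42 actin genes 5 fell and 1 rose, so 14.3% were called, near the 11.5% of all genes. Without KO C 2 fell and 1 rose, and without KO A 9 fell. Evl, which extends actin filaments, had 15.4, 12.3 and 13.4 against 23.9, 24.4 and 25.9 FPKM (log2 change -0.81 ± 0.09, adjusted p = 0.00113), whereas Actn1, the crosslinker alpha-actinin, had 63.8, 46.2 and 54.4 against 37.4, 34.6 and 33.8 FPKM (log2 change 0.61 ± 0.11, adjusted p = 0.00778). Of 36 ion channels and pumps 7 fell and only Trpm2 rose (22.2% called), or 3 and 1 without KO C. Piezo1, a channel opened by membrane stretch, had 9.05, 9.21 and 9.02 against 14, 12.5 and 14.1 FPKM (log2 change -0.52 ± 0.07, adjusted p = 0.00212).

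Growth factors and their receptors moved in both directions, with 3 higher and 4 lower of 11 (63.6% called against 11.5% of all genes). Without KO C or fl B 2 were higher and 1 lower, and 2 were lower without fl A, fl C or KO B. Hgf, hepatocyte growth factor, had 3.73, 3.93 and 3.34 against 2.48, 2.44 and 1.89 FPKM (log2 change 0.52 ± 0.10, adjusted p = 0.0123), and Igf1r, the receptor of insulin-like growth factor, 12, 11.7 and 11.2 against 8.01, 8.11 and 9.13 FPKM. Grn, progranulin, fell to 126, 123 and 124 FPKM from 159, 156 and 174. Pdgfb, a platelet-derived growth factor chain, had 0.798, 0.685 and 0.718 against 1.17, 1.28 and 1.62 FPKM (log2 change -0.44 ± 0.10, adjusted p = 0.0256), and Met, the receptor of Hgf, 1.80, 1.47 and 1.66 against 3.36, 3.15 and 2.11 FPKM (log2 change -0.54 ± 0.14, adjusted p = 0.0394), with the calls lost in 6 and 9 of the 14 settings that tested them. Pdgfb passed the filter only through the fl libraries. Axl, a receptor kinase that binds Gas6, was named after its values were seen and had 3.99, 1.56 and 2.79 against 5.86, 4.64 and 5.0 FPKM (log2 change -0.75 ± 0.20, adjusted p = 0.0471), a call lost without KO C or any of the fl libraries and in 4 settings that kept all 6 libraries. In the clock list 2 of 14 rose and 2 fell (28.6% called; 1 rose without any 1 of the KO libraries or fl C, and 0 without fl A or fl B). Nfil3 fell (33.8, 29.9 and 32.7 against 54.2, 53.5 and 59.3 FPKM; log2 change -0.77 ± 0.13, adjusted p = 0.00569), and Ciart, a repressor of the clock, was at 1.02, 1.06 and 1.04 against 2.71, 2.56 and 1.70 FPKM. Acvrl1 and Acvr1, related receptors of the TGF-beta family, differed in direction. Acvrl1 had 10.1, 6.34 and 8.13 against 3.63, 4.31 and 3.92 FPKM (log2 change 0.87 ± 0.15, adjusted p = 0.00737), and Acvr1, which passed the filter only through the fl libraries, 0.604, 0.657 and 0.581 against 1.36, 1.40 and 1.51 FPKM (log2 change -0.58 ± 0.10, adjusted p = 0.0062).

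T cell markers had a higher summed level in the libraries labelled KO although the cells are labelled myeloid. The 19 T cell markers summed to 30.8 to 43.6 FPKM in the libraries labelled KO and 8.58 to 11.3 in fl. Of these, 9 were tested, and in 8 of the 9 at least 1 fl library was under 1 FPKM (every fl library in Cd3d and Trac), so that passing the filter favoured genes that are higher in KO and no share of risers is given. Among the GIMAP GTPases, which support lymphocyte survival, Gimap4 had 4.90, 9.51 and 6.81 against 1.19, 1.78 and 2.06 FPKM (log2 change 1.57 ± 0.21, adjusted p = 0.00256), with KO B highest, and Gimap3 and Gimap6 had 3.48, 8.19 and 5.48 against 0.970, 1.36 and 1.64 FPKM and 4.66, 7.03 and 5.59 against 1.87, 2.40 and 2.69 FPKM. Gimap8, named after its values were seen, also rose, but it passed the filter only through the libraries labelled KO. In the 4 members at 1 FPKM or more in every fl library, 2 rose, where 3.72% of all such genes did. Trbc1 and Trbc2, the constant segments of the T cell receptor beta chain, had 5.17, 7.18 and 5.52 against 0.667, 2.12 and 0.939 FPKM and 4.51, 8.11 and 4.98 against 0.985, 0.696 and 1.17 FPKM, and they are alike enough in sequence that the division between them is uncertain. None of the 19 T cell markers was under 0.1 FPKM in all 6 libraries. The part of T cells in these rises was not tested. The summed levels of NK cell markers overlapped (140 to 272 against 142 to 206 FPKM), while 5 of the 8 tested were called higher and 0 lower. Without KO C 1 was higher. Over all genes 4.38% were higher, and 1.82% without KO C. Of the 8 tested, 3 (Klrb1c, Klrc1 and Prf1) had no fl library at 1 FPKM and passed the filter only through the libraries labelled KO. Il2rb, a receptor subunit for interleukin-2 and interleukin-15, had 4.66, 9.04 and 6.74 against 1.44, 2.08 and 2.84 FPKM (log2 change 1.31 ± 0.25, adjusted p = 0.0119). Klra17, a lectin-like receptor of a family with many close copies, had 3.17, 4.78 and 3.78 against 0.496, 0.364 and 0.635 FPKM (log2 change 1.70 ± 0.14, adjusted p = 0.000406, limma), a fold of 7.85 that depends on how fragments were divided within the family. Every fl library was under 1 FPKM, so Klra17 passed the filter only through the libraries labelled KO.

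Calls in basophil and mast cell genes differed in how far they rested on single libraries. Prss34 and Mcpt8, serine proteases of basophil granules, had 201, 267 and 234 against 51.5, 64.5 and 124 FPKM and 99.3, 130.4 and 118 against 28.6, 33.6 and 64.9 FPKM. The groups did not overlap, but fl C lay well above fl A and fl B, and the calls of both genes were lost without KO C or fl B, and that of Mcpt8 also without fl A. Fcer1a, the IgE-binding chain of the high-affinity receptor, had 5.75, 28.1 and 16.2 against 2.05, 1.98 and 4.88 FPKM, highest in KO B, and its call was lost in the same 5 settings as that of Lag3. By contrast, Cpa3 and Ms4a2 kept their calls in every setting. Cpa3 had 18.1, 18.3 and 18.4 against 4.07, 5.14 and 5.67 FPKM and rose 3.68-fold (log2 change 1.70 ± 0.13, adjusted p = 0.000406, limma). Ms4a2, the beta chain of the same receptor as Fcer1a, had 7.75, 8.55 and 6.85 against 2.75, 2.86 and 3.27 FPKM (log2 change 1.14 ± 0.17, adjusted p = 0.00343). Of 20 tested markers of basophils, mast cells and eosinophils 8 rose (2 without KO C or fl B, 3 without fl A). Over all genes 4.38% were higher, and 1.82% without KO C. The 22 markers summed to 7327 to 12765 FPKM in the libraries labelled KO and 6226 to 12008 in fl. The erythroid markers summed to 123 to 133 FPKM against 45.4 to 86.0. Of 11 tested, 5 were higher (2 without KO C, and 3 without KO A, fl A or fl C), to be read against the same shares. The progenitor markers summed to 94.5 to 129 against 66.4 to 72.0, where 3 of 13 tested had no fl library at 1 FPKM. Of 16 tested B cell markers 0 were called. Of 118 immunoglobulin variable segments 9 were called higher and 5 lower (11.9% called against 11.5% of all genes). Segments share sequence, so their fragments may be divided unevenly between copies. Of the tissue lists, 9 of 15 epithelial and 6 of 10 fibroblast markers were under 0.1 FPKM in all 6 libraries.

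The share of genes called is given by class, and whether the classes differ was not tested. Over all genes 11.5% were called, 508 higher and 819 lower. Of 9826 protein-coding genes 12.4% were called, of 513 long non-coding genes 10.7%, and of 651 pseudogenes 3.84%. Among the called long non-coding genes 38 were higher and 17 lower, whereas among the called protein-coding genes 435 were higher and 779 lower. Of 112 small nucleolar and 72 small nuclear RNA genes 0 were called. Of 27 mitochondrially encoded genes 0 were called.

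By chromosome, the share called was lowest on X among the nuclear chromosomes with over 100 genes tested, at 6.12% of 327 genes, and highest on chromosome 17, at 14.2% of 614. On chromosome 6, 49 genes rose and 39 fell (13.9% of 634). The Y-annotated pseudogene Mid1-ps1 was at 1.17, 2.91 and 3.13 against 0.0728, 0.0386 and 0.260 FPKM. KO B held 79 of its fragments while holding none of the 4 Y-linked genes, so its fragments in that library do not follow them. It was named after its values were seen.

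Genes near Lyz2 and near Socs3 were examined because a targeted allele can carry linked sequence from another strain. Within 10 Mb of Lyz2 on chromosome 10, 7 of 66 tested genes were called (10.6%; 3 without KO C), close to the 11.5% of all genes. Among them Tspan31, a tetraspanin, had 8.12, 8.05 and 8.64 against 13.9, 13.6 and 14.3 FPKM (log2 change -0.69 ± 0.08, adjusted p = 0.00121), and Phlda1 3.06, 2.46 and 2.88 against 1.48, 1.55 and 1.64 FPKM. Within 10 Mb of Socs3 on chromosome 11, 24 of 159 were called (15.1%; 10 without KO C, 13 without fl A and 11 without fl B), 10 higher and 14 lower. These include Cd300lf and Cd300a, Rab37, a GTPase of secretory vesicles (7.03, 6.86 and 6.85 against 3.45, 3.88 and 4.92 FPKM; log2 change 0.65 ± 0.11, adjusted p = 0.00819), Nt5c, a nucleotidase (39.7, 38.2 and 39.3 against 52.5, 50.2 and 55.5 FPKM; log2 change -0.42 ± 0.06, adjusted p = 0.00343), and Metrnl, a secreted cytokine-like protein (24.1, 16.9 and 23.4 against 45.8, 45.5 and 44.3 FPKM; log2 change -1.06 ± 0.13, adjusted p = 0.00162). The labels name SOCS3 as the gene knocked out. Whether any of these changes comes with a targeted allele was not tested.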

How the data were processed

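Total RNA of 9 libraries (3 each of KO, fl and Gr_1) was sequenced as paired ends, per the labels' protocols. The authors deposited 1 table of FPKM values for 54532 Ensembl genes, per the file headers. The submitters' processing notes list featureCounts 1.5.0-p3, DESeq2 1.16.1, mm10 and GRCm38 without saying what each was used for. No aligner is named in the sources used here. Columns were assigned to libraries by their names. Symbols, coordinates and exon lengths came from GENCODE M21 on GRCm38, where 54409 genes matched. FPKM times exon length gave whole fragments for 97.2% to 97.5% of values under 1000 fragments (within 0.02), which gave the depths; intervals and floors cover counting error only.

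The fit used limma 3.58.1 in R 4.3.3, with a mean-variance trend on log2(FPKM + 1), 1 term per group, no block and all 9 libraries (6 residual degrees of freedom). A gene was tested if 3 or more of the 6 KO and fl libraries reached 1 FPKM, with Benjamini-Hochberg adjustment over all genes tested. Adding 1 to FPKM understates changes of low genes. Lists are described by counts and medians, with no set test. The 25 largest rises and falls and the 10 largest differences in FPKM each way were named outside the set-aside markers. These had to be called, without overlap between groups and at 1 FPKM or more on average in the higher group. On the call alone, up to 3 members per list and direction and the genes near Lyz2 or Socs3 were named. Where a list had no call, its 2 most abundant members were named. Socs3, Lyz2, Xist, Ddx3y, Eif2s3y, Kdm5d and Uty were named whatever their values. The genes described are a part of those named. The members, lists, naming rule and alternatives were chosen with earlier results of these data known. The 15 alternatives were another pseudocount, 2 other filters, only the KO and fl libraries, a replicate block, quantile normalization, rescaling, median centring, voom on recovered fragments, and leaving out each library. Tables and figures were made with Python 3.11.15, pandas 2.3.3 and matplotlib 3.10.9.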

Additional observations from a re-analysis of the deposited data

How the results depend on the processing

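No gene called in the reported fit was called in the opposite direction under any of the 15 alternatives, and 574 of the 1327 (200 higher, 374 lower) were called in every alternative that tested them. Using only the KO and fl libraries gave 797 calls (273 higher, 524 lower). A filter at 5 FPKM left 7006 genes and 294 calls higher. Leaving out 1 library at a time gave 613 to 1210 calls, 211 to 577 higher and 402 to 753 lower, with the fewest without KO C and 845 and 748 without fl A and fl B. Within 10 Mb of Socs3 these settings gave 10 to 20 calls (13 without fl A, 11 without fl B), and within 10 Mb of Lyz2 3 to 8. Of the genes named without a call, Mvd ran from -0.25 without KO A to 0.0064 without KO B, a change of sign. The causes were not tested. The library letters were not taken to pair samples: the correlation of deviations from the group means between KO and fl libraries of the same letter was 0.155, -0.01 and 0.072. With the letter as a replicate block 1039 genes were called (399 higher, 640 lower). Depth limits genes near 0.136 to 0.162 FPKM per kilobase of exon, where 3 fragments lie.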
